A study of Mus musculus with 6 samples.

Results

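Fasted-only sites are stretches of liver DNA that were called hypersensitive to DNase I in every fasted library and in no fed library. They were chosen by the authors' hotspot calls: hotspots of the 6 libraries on chromosomes 1 to 19 that overlapped by at least 1 bp were merged into 72722 union regions, and the 852 regions (1.17%) with a hotspot in all 3 fasted and none of the 3 fed libraries were kept. All livers came from C57BL/6 mice, an inbred strain, kept under 12-h light and 12-h dark. The fed group (n = 3 libraries) ate ad libitum, and the fasted group (n = 3) had no food for 24 h. Livers were taken at the start of the light phase, and nuclei were digested with 40 U/ml DNase I. The sources used here give no age or sex, and the labels do not say that each library is a separate animal, so p-values measure only the spread between these libraries, which may be technical.

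DNase I cuts DNA where nucleosomes have been displaced, so places where cut ends pile up, called hotspots, mark promoters, enhancers and other DNA held accessible by transcription factors. In the fasting liver, glucagon and glucocorticoids signal to the nucleus, and factors such as CREB, the glucocorticoid receptor, C/EBPβ, FOXO1 and PPARα are known to act at enhancers of genes for glucose production, fatty acid oxidation and ketone synthesis. Whole liver is a mixture of hepatocytes and other cells, so more open chromatin per cell and more cells of a type cannot be told apart. The coordinates are those of build mm9; no mm9 sequence or gene annotation was used here, so sites are given by position, without genes, bases or a check of liver marker loci.

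The strength of a site is its maximum tag density, a coverage height that the authors scaled in each library. Each library's heights came in whole numbers of one smallest unit, or step (100% to within 0.05 step). If 1 step is 1 tag, which the sources used here do not state, relative depth was 1.00 to 1.64 in the fed and 1.24 to 1.90 in the fasted libraries, with fed replicate 3 and fasted replicate 2 the deepest of their groups. The lists held 49442 to 61195 hotspots in the fed and 48164 to 61490 in the fasted libraries on chromosomes 1 to 19. A list holds only called hotspots, so the density of a fasted-only site in the fed libraries is unknown, not 0.

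Most fasted-only sites were weaker and narrower than the regions called in all 6 libraries. Their densities ran from 1.99 to 80.9 in fasted replicate 1 (median 8.79), from 1.18 to 66.7 in fasted replicate 2 (median 8.09) and from 2.12 to 52.7 in fasted replicate 3 (median 9.69). In steps, the median heights were 31, 41 and 32. The mean over the 3 libraries had a median of 8.87, with the middle 50% of sites between 6.52 and 12.7, while the 36088 regions called in all 6 libraries (shared regions) had a median of 24.1. For regions called in all fed and no fasted libraries the median was 11.1. It was 5.81 for regions called in exactly 3 libraries of both groups, so low density is not particular to the sites. In all, 59 sites (6.92%) had a mean above 20 and 13 had a mean above 30. These densities describe sites that the calls selected and are not evidence of a difference between the groups.

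How the sites compare with the low end of the fed lists gives a scale for the missing calls. The weakest hotspots of fed replicates 1, 2 and 3 stood at 0.7355, 0.7494 and 0.9155. These lie below 1.18, the lowest density of any site in any fasted library, so the percentiles below are not limits of calling. The 5th percentile of density was 5.52, 4.87 and 3.43 in fed replicates 1, 2 and 3. At 586 sites (68.8%) the lowest fasted library stood above all 3 of these values. At 224 sites (26.3%) it stood above 9.93, the highest 25th percentile of the fed lists. The 266 sites outside the first count had at least 1 fasted library at or below the highest fed 5th percentile, where a call can be missed in 1 list and made in another. How far depth set the missing calls was not tested.

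**Figure D1:**
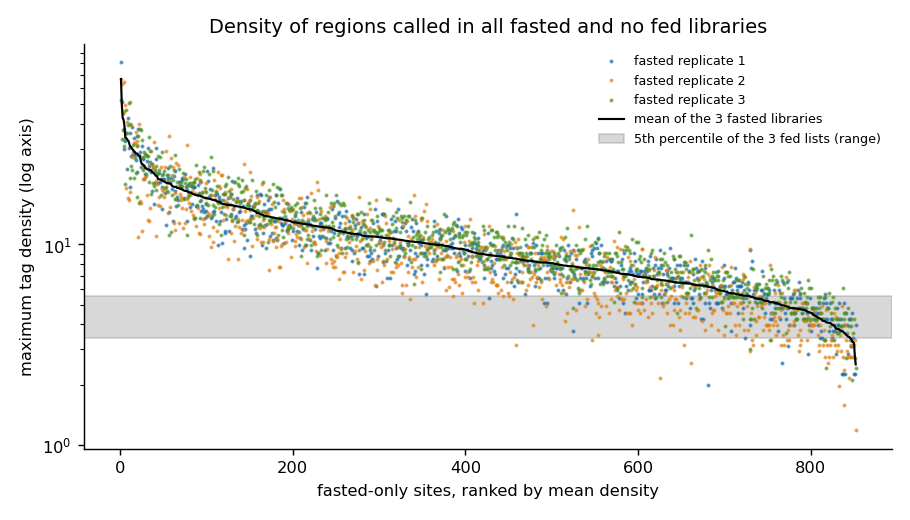
Maximum tag density (log axis) of the 852 fasted-only sites in fasted replicates 1 to 3 (points) and their mean (line), ranked by mean; the grey band spans the 5th percentiles of the 3 fed lists, 3.43 to 5.52. A short steep start holds the 13 sites with a mean above 30, and the line then falls slowly through a median of 8.87 into the band.

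The rule requires overlapping or chained hotspots in the fasted libraries, so their common position is no result. In 845 sites (99.2%) each fasted library had exactly 1 hotspot, and a median of 66.4% of a site's bases lay inside the hotspots of all 3 libraries. That share was under 50% at 180 sites. At 1 site no base lay in all 3: the weakest, chr7:15311012-15311909, with densities of 3.97, 1.18 and 2.42, where the hotspots were chained end to end. The coefficient of variation over the fasted libraries had a median of 21.5% and ran from 1.59% to 78.6%, and at 132 sites (15.5%) the highest library exceeded the lowest by more than 2-fold. Fasted replicate 2, the deepest library, was the lowest at 456 sites, against 244 for replicate 1 and 152 for replicate 3, and replicate 3 was the highest at 397. Across sites, log2 densities correlated at 0.75 (replicates 1 and 2), 0.85 (1 and 3) and 0.74 (2 and 3), against 0.94 to 0.97 across shared regions. These values are across sites, which share libraries and depth and are not replicates.

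At 1 of the 3 sites with the widest relative spread 1 library stood apart, and at the other 2 all 3 libraries differed. At chr7:137019435-137020496 fasted replicate 2 reached 14.8, and replicates 1 and 3 stood at 3.69 and 4.84. At chr1:57330035-57330631 replicate 3 reached 11.2 and replicates 1 and 2 stood at 5.39 and 2.57. At chr7:141366789-141367574 the densities were 14.2, 3.16 and 8.17 in replicates 1 to 3. Beside the chr7 site at 15311012, the weakest sites were chr9:55619419-55619939 (2.27, 3.35 and 2.72) and chr18:31602208-31602877 (2.27, 3.16 and 4.24). All of these had at least 1 fasted library below 5.52, the highest fed 5th percentile.

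Fasted-only sites were also narrower than shared regions. Their width had a median of 666 bp (middle 50%: 598.75 to 768 bp, range 327 to 3796 bp), against 1054 bp for shared regions. The median was 705 bp for regions called in all fed and no fasted libraries. For regions called in exactly 3 libraries of both groups it was 604 bp. Only 58 sites (6.81%) exceeded 1000 bp, against 55.8% of shared regions, whose union spans hotspots of 6 libraries rather than 3. The widest was chr6:141828237-141832032 (3796 bp), a site of 6 hotspots with densities of 21.3, 24.3 and 28.8 in fasted replicates 1 to 3. Next came chr14:41936687-41940185 (3499 bp; 33.8, 32.0 and 21.5), chr3:96363598-96366799 (3202 bp), chr5:146663088-146666123 (3036 bp; 9.08, 13.8 and 9.38) and chr13:94401999-94404692 (2694 bp; 19.6, 14.6 and 20.3). The chr5 site lost its status where a call had to cover at least 50% of a region, with 46.3% of its bases inside the hotspots of all 3 fasted libraries.

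The regions just outside the rule were close to the sites in strength. The 1386 regions called in all 3 fasted libraries and 1 fed library had a median density of 7.68 and a median width of 663 bp. Their single fed call came from fed replicate 3 in 1099 (79.3%), where its median density was 6.41. The 1302 regions called in 2 fasted and no fed libraries had a median density of 6.13, and fasted replicate 2 was 1 of the 2 calls in 1196 (91.9%). The number of sites was 1963 with fed replicate 3 left out. It was 1510 with fasted replicate 1 left out and 1395 with fasted replicate 3 left out. For the other 3 libraries it was 985 to 1006. Fewer libraries had to agree in each of these cases, and every count was above 852. Why the count depended on which library was left out was not tested.

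The strongest fasted-only site was chr17:31994743-31995653, 911 bp wide, with densities of 80.9, 66.7 and 52.7 in fasted replicates 1 to 3 (mean 66.7 ± 14.1, SD, n = 3). Every fasted value lay far above the 25th percentiles of the fed lists. The nearest shared region, 729 bp away, stood at 39.7, 52.1 and 34.8 with food and at 39.7, 50.5 and 44.5 without. The groups overlapped there, and its log2 fold change (fasted minus fed) of 0.18 (SE 0.19) did not pass (adjusted p = 0.591, limma). The strongest site therefore stood beside a region with no detected change.

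The second strongest, chr5:136115595-136116965, had densities of 51.1, 63.1 and 33.6 (mean 49.3 ± 14.9). Its neighbour 1514 bp away went from fed densities of 26.1, 21.0 and 25.4 to 39.4, 47.8 and 36.6 after fasting (log2 fold change 0.82, adjusted p = 0.00532). The third, chr2:160630607-160631507, was the most even of the 10 strongest, at 45.4, 45.2 and 37.2 (mean 42.6 ± 4.65). It lies 105 bp from a shared region that rose from 18.0, 9.74 and 14.6 to 28.7, 42.4 and 30.9 (log2 fold change 1.31, adjusted p = 4.8e-04), and it merged with that region when hotspots within 150 bp were joined. At the fourth, chr1:40189406-40190527, fasted replicate 2 reached 64.7, against 30.1 and 30.9 in replicates 1 and 3. Its neighbour, 15735 bp away, was weak in all 6 libraries (8.23 to 11.5) and its groups overlapped.

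The fifth site, chr7:148609342-148610410, had densities of 37.7, 46.2 and 33.3 and lies 2604 bp from one of the strong risers. That region went from fed densities of 31.6, 49.5 and 52.0 to 125, 116 and 128 after fasting (log2 fold change 1.56, SE 0.18, adjusted p = 2.8e-06). The fasted-only site was weaker than its neighbour, at 0.318 of the neighbour's fasted mean. The opposite held at chr2:65064199-65065589, the sixth (32.6, 49.5 and 19.98), whose mean was 2.00 times that of its neighbour 2600 bp away. That neighbour went from 12.9, 9.37 and 9.38 to 20.1, 16.4 and 14.5 (log2 fold change 0.72, adjusted p = 0.0276), a call that failed under 6 of the other settings, at adjusted p-values of 0.0504 to 0.138.

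At the seventh site, chr15:89256042-89256849, fasted replicate 2 was the low library (35.7, 19.1 and 46.9). Its neighbour 1494 bp away showed the same order of fasted libraries, at 25.2, 15.6 and 27.8, above fed values of 10.7, 10.5 and 9.61 (log2 fold change 1.13, adjusted p = 9.2e-04). The eighth, chr7:137729859-137730887, had densities of 23.8, 40.8 and 36.0, and its neighbour 8567 bp away rose from 10.3, 8.24 and 11.4 to 34.0, 16.2 and 31.8 (log2 fold change 1.39, adjusted p = 3.0e-04). Here the order differed: fasted replicate 2 was the highest library at the site and the lowest at the neighbour. The remaining 2 of the 10 strongest lie side by side on chromosome 3 and are described with their group. Of the 10 strongest sites, 6 had a nearest shared region that rose, 4 had one that did not pass and 0 had one that fell, where 8.25% of all shared regions rose and 7.73% fell.

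**Figure D2:**
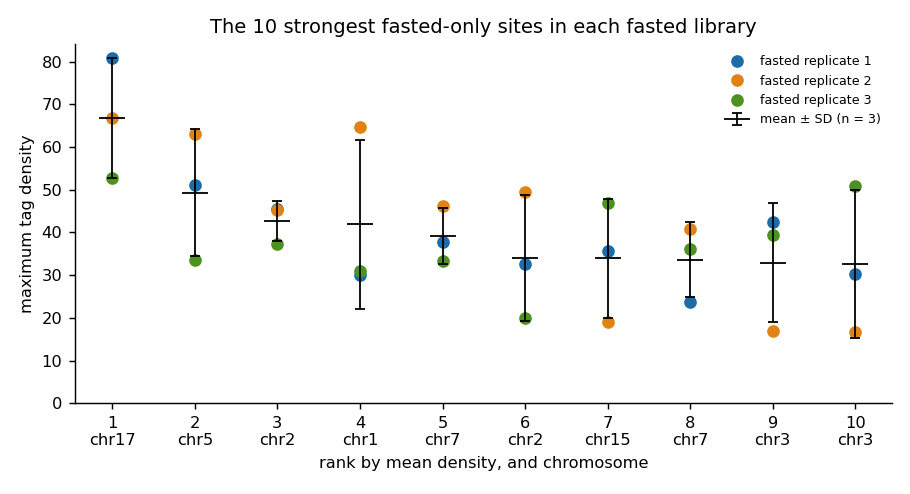
Maximum tag density of the 10 strongest fasted-only sites in fasted replicates 1 to 3 (points) with mean ± SD (n = 3; bars); the fed libraries have no call and no value there. The site on chromosome 17 stands highest, at 52.7 to 80.9, and the pair on chromosome 3 has its low value in fasted replicate 2.

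Fasted-only sites lay near chromatin that was open in both states. The distance from a site to the nearest shared region, edge to edge, had a median of 5352.5 bp (middle 50%: 1562.75 to 16890 bp). Under 1 kb from a shared region lay 162 sites (19.01%), from 1 to 5 kb 252 (29.6%), from 5 to 20 kb 249 (29.2%), from 20 to 100 kb 146 (17.1%) and beyond 100 kb 43 (5.05%). Shared regions lay at a similar distance from each other, with a median of 6078 bp. The median distance was 6943 bp for the 1153 regions called in all fed and no fasted libraries, and 11712 bp for the 3894 regions called in exactly 3 libraries of both groups. The nearest fed hotspot of any kind lay at a median of 3529 bp; 192 sites (22.5%) had one within 1 kb and 21 (2.46%) within 150 bp.

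Whether these open neighbours changed with fasting could be tested, because their densities were measured in all 6 libraries and were not used by the rule. Over the 36088 shared regions, limma found that 2978 (8.25%) rose and 2791 (7.73%) fell in fasted livers (Benjamini-Hochberg adjusted p under 0.05). Of the 852 fasted-only sites, the nearest shared region rose at 233 (27.3%), fell at 29 (3.40%) and did not pass at 590. The share with a risen neighbour was thus 3.31 times that of all shared regions, and the share with a fallen one 0.44 times. The neighbours' median log2 fold change was 0.21, against 0.04 over all shared regions, and 71.7% of the neighbours had a positive value, against 55.1%. The sites and their neighbours come from the same libraries, so a library effect common to a stretch of DNA would touch both.

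Some sites share a neighbour. The 852 sites had 800 different nearest shared regions, of which 213 (26.6%) rose and 27 (3.38%) fell. The median log2 density of these 800 regions, each library centred on the median of all shared regions, was -0.08, -0.14 and -0.17 in the fed libraries. In the fasted libraries it was 0.28, 0.26 and 0.27. All 3 fasted libraries lay above all 3 fed ones. The risen neighbours had a median log2 fold change of 0.88, near the 0.78 of all risen regions. At 98 sites (11.5%) the neighbour rose by more than 1 on the log2 scale, which 2.03% of all shared regions did.

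The size of these shares depended on which libraries took part. The share of sites with a risen neighbour was 15.3% when fed replicate 3 was left out (5.56% of all shared regions rose), 15.2% for fasted replicate 1 (5.22%) and 17.4% for fasted replicate 3 (5.97%). For the other 3 libraries it was 19.7% to 25.2%. Without centring of the libraries, 177 neighbours rose and 33 fell, in a fit where 38.1% of all changed regions rose in place of 51.6%. Across all settings tried the share with a risen neighbour was 2.63 to 5.09 times that of all shared regions in the same fit, and the share with a fallen neighbour 0.12 to 0.62 times.

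Neighbours rose most often close to the sites. The nearest shared region rose at 72 of 162 sites (44.4%) when under 1 kb away. From 1 to 5 kb it rose at 84 of 252 (33.3%), from 5 to 20 kb at 58 of 249 (23.3%), from 20 to 100 kb at 18 of 146 (12.3%) and beyond 100 kb at 1 of 43 (2.33%). Fallen neighbours numbered 2, 3, 9, 9 and 6 in the same bins (1.23%, 1.19%, 3.61%, 6.16% and 13.95%). The matching values for the nearest other shared region of a shared region varied less, with 9.76%, 10.2%, 8.05%, 6.62% and 4.96% risen. The fallen shares there were 8.15%, 8.19%, 7.48%, 7.54% and 9.78%. Beyond 100 kb more of the sites' neighbours fell (6) than rose (1), and their fallen share was above that of shared regions. Among the 6, the chromosome 17 pair described below shares 1 region. Fallen neighbours also outnumbered risen ones there for shared regions (144 and 73). The same held for regions called in 3 fasted and 1 fed libraries (12 and 4, 13.2% fallen). For regions called in all fed and no fasted libraries it was 12 and 5 (15.6% fallen). These differences were not tested. The median log2 fold change of the sites' neighbours went from 0.44 under 1 kb to 0.32, 0.15, 0.04 and -0.01 in the farther bins. With neighbours under 1 kb set aside, 23.3% of sites still had a risen one.

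The same held when every shared region was placed by its distance to the closest fasted-only site. Of 178 shared regions under 1 kb from a site 43.3% rose and 1.69% fell, and of 399 at 1 to 5 kb 29.8% rose and 2.26% fell. Of 1092 at 5 to 20 kb 18.6% rose, of 3439 at 20 to 100 kb 10.6% rose, and of the 30980 farther away 7.14% rose. In total 1669 of the 36088 shared regions lay within 20 kb of a site. Of these 399 (23.9%) rose and 81 (4.85%) fell, where 8.25% of all shared regions rose and 7.73% fell. The 399 are 13.4% of all 2978 risen regions. Most shared regions, risen or not, had no fasted-only site within 20 kb.

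Both flanks could be examined at 331 sites that had a shared region within 20 kb on either side. Both flanking regions rose at 39 (11.8%), exactly 1 rose at 116 and neither rose at 176. Both fell at 2 sites, and the flanks went in opposite directions at 3. At 46.8% of these sites at least 1 flank rose. Of 12262 shared regions with a shared region within 20 kb on either side, both flanks rose at 2.67% and at least 1 rose at 17.5%; this comparison was added after the data were seen and has no test.

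**Figure D3:**
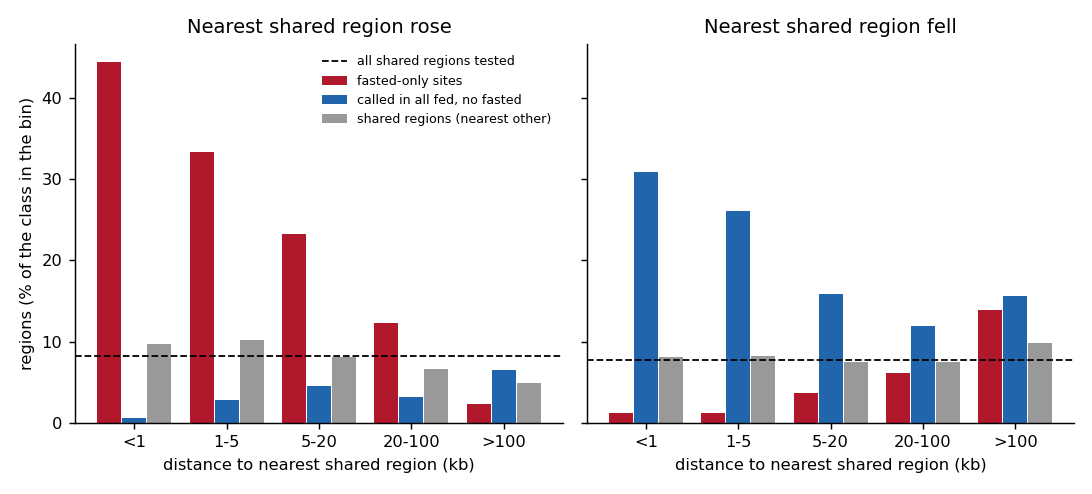
Share of regions whose nearest shared region rose (left) or fell (right) in fasted livers, by distance to it in kb, for fasted-only sites (red), regions called in all fed and no fasted libraries (blue) and shared regions with their nearest other shared region (grey); the dashed line is the share over all shared regions, 8.25% and 7.73%. For fasted-only sites the risen share falls from 44.4% under 1 kb to 2.33% beyond 100 kb.

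Stronger sites had risen neighbours more often. With the sites divided by mean density into 4 equal sets, the neighbour rose at 29 of 213 (13.6%) and fell at 14 in the weakest set (2.53 to 6.51). In the second (6.53 to 8.87) it rose at 51 and fell at 9, in the third (8.87 to 12.7) at 61 and 5, and in the strongest (12.7 to 66.7) at 92 (43.2%) and 1. Stronger sites also lay closer to shared regions, with a median distance of 14435 bp in the weakest and 2738 bp in the strongest set. Across sites, density and the neighbour's log2 fold change had a Spearman rho of 0.31, distance and that fold change -0.33, and density and distance -0.35; these describe sites that share libraries. Among the 224 sites whose lowest fasted density exceeded the fed 25th percentiles, 42.0% had a risen neighbour and 0.893% a fallen one, at a median distance of 2675 bp.

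Most sites were weaker than the open region beside them. The median ratio of a site's mean density to the fasted mean of its nearest shared region was 0.33. At 74 sites (8.69%) the site was the stronger of the 2. There the neighbour rose at 8 (10.8%) and fell at 3 (4.05%), at a median distance of 6.92 kb. Over all shared regions 8.25% rose and 7.73% fell. Choosing these sites used the neighbour's fasted density, which also enters its call. A neighbour high in fasted libraries is less often kept, so these shares are no result about such sites. Neighbours themselves were of ordinary strength, with a median density of 25.6 against 24.1 for all shared regions.

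Among shared regions within 20 kb of their site, those that rose most stood beside sites both weak and moderately strong. The site chr10:68568190-68569157 (6.53, 9.28 and 7.57) lies 111 bp from a region that went from 10.3, 8.62 and 8.24 in the fed to 46.8, 59.6 and 53.3 in the fasted libraries (log2 fold change 2.51, SE 0.20, adjusted p = 5.3e-08). When hotspots within 150 bp were joined this site became part of that region. Next, chr15:25877732-25878739 (16.5, 22.5 and 13.6) lies 2081 bp from a region that rose from 8.09, 7.49 and 6.18 to 41.7, 68.5 and 28.2 (2.51, adjusted p = 1.6e-06). In site and neighbour alike, fasted replicate 2 was the highest library and replicate 3 the lowest.

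Site chr10:43460266-43461011 was weak (6.24, 5.13 and 5.45), and the region 752 bp away rose from 11.4, 15.4 and 13.7 to 57.0, 65.9 and 64.8 (log2 fold change 2.22, adjusted p = 1.4e-07). Site chr4:115159563-115160224 (15.0, 8.68 and 15.4) lies 221 bp from a region that rose from 21.3, 12.7 and 25.2 to 99.9, 59.4 and 95.7 (2.14, adjusted p = 8.3e-07). In both pairs all fasted values of the neighbour exceeded all fed ones by more than 2-fold. The fifth, chr3:96370254-96371171, belongs to the chromosome 3 group below.

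Few sites stood beside regions that fell, and the 5 largest falls within 20 kb are given here. Site chr16:18392309-18393029 (13.3, 11.6 and 12.4) lies 12386 bp from a region that fell from 94.9, 74.9 and 72.1 in the fed to 21.3, 18.4 and 21.8 in the fasted libraries (log2 fold change -1.84, SE 0.17, adjusted p = 2.9e-07). Beside chr6:37851645-37852421 (8.79, 8.68 and 9.99) a region 10900 bp away fell from 56.3, 34.1 and 55.2 to 15.3, 11.2 and 14.8 (-1.64, adjusted p = 1.2e-05). Both sites were even across the fasted libraries, with coefficients of variation of 6.79% and 7.91%. The narrow site chr12:105328319-105328740 (422 bp; 6.81, 5.53 and 7.26) lies 11766 bp from a region that fell from 139, 102 and 119 to 36.3, 31.4 and 40.3 (-1.63, adjusted p = 3.4e-07).

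On chromosome 2, the region 7510 bp from chr2:134681842-134682785 (6.81, 9.47 and 6.66) fell from 62.2, 58.5 and 80.1 to 26.7, 23.3 and 34.2 (log2 fold change -1.15, adjusted p = 1.2e-04). The region 4663 bp from chr2:165739752-165740141 (390 bp; 8.51, 9.08 and 9.38) fell from 83.9, 105 and 98.6 to 45.1, 36.1 and 40.6 (-1.14, adjusted p = 3.5e-05). In the fasted libraries the 5 sites stood at 0.18 to 0.66 of the density of these fallen regions.

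**Figure D4:**
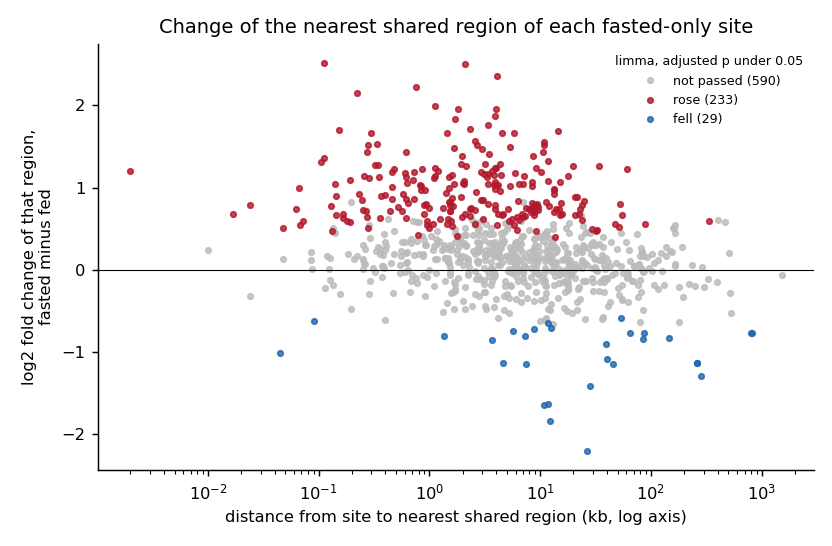
Log2 fold change (fasted minus fed) of the nearest shared region of each fasted-only site against its distance (kb, log axis); colours show the limma call at adjusted p under 0.05. Of 852 points 233 rose and 29 fell, and risen points crowd at distances under 20 kb.

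None of the 5 sites farthest from a shared region had a neighbour that rose. Over all shared regions 8.25% rose, so with 5 sites this count is no result about isolated sites. The most isolated, chr6:79835016-79836138 (5.67, 4.54 and 6.96), lies 1522395 bp from any shared region and 589882 bp from any fed hotspot. A pair 6.25 kb apart on chromosome 17, chr17:54817162-54818120 (17.9, 11.6 and 19.7) and chr17:54824372-54825168 (5.67, 4.74 and 10.3), lies 807363 and 814573 bp from its nearest shared region. That region went from 19.5, 21.0 and 11.4 to 7.66, 11.1 and 8.17 (log2 fold change -0.77, adjusted p = 0.0368), a call that failed under 7 of the other settings, at adjusted p-values of 0.0627 to 0.162. The others were chr16:7659096-7659613 (2.27, 3.95 and 4.54) at 530139 bp and chr1:98768487-98769107 (4.26, 2.17 and 3.94) at 518604 bp. Only the first of the chromosome 17 pair exceeded a density of 11 in every fasted library.

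Sites were spread over all 19 autosomes, from 16 on chromosome 18 to 76 on chromosome 2. Relative to all union regions of a chromosome they made up 0.653% (chromosome 18) to 1.46% (chromosome 12). The median distance from a site to the next site was 459 kb, and 136 sites (16.0%) lay within 20 kb of another, in 61 groups. The same share was not computed for fed-only regions, so it is no result about grouping. Of these groups 52 held 2 sites, 5 held 3, 3 held 4 and 1 held 5. Grouped sites had a median density of 12.0 and single sites 8.31. The neighbour rose at 62 of 136 grouped (45.6%) and 171 of 716 single sites (23.9%), where 8.25% of all shared regions rose. Whether grouping mattered apart from density was not tested. Sites of a group often share a neighbour and so are not independent.

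The largest group covers 16.8 kb (chr13:94387896-94404692) and holds 5 sites. In order along the chromosome their densities in fasted replicates 1 to 3 were 15.6, 13.6 and 15.1 (94387896), 13.6, 10.5 and 12.4 (94392430), 16.5, 11.4 and 18.2 (94397218), 13.6, 7.70 and 13.9 (94398311), and 19.6, 14.6 and 20.3 (94401999). Fasted replicate 2 was the lowest library at every site of the group, as it was at 456 of all 852 sites. Site densities were not centred, and over shared regions its median was 21.1, against 23.3 and 24.8 in fasted replicates 1 and 3. Between them lies 1 region that fed replicate 2 also called, at a density of 10.9. The shared regions on either side rose: chr13:94384169-94387049 from 25.4, 20.6 and 18.5 to 48.2, 31.2 and 49.0 (log2 fold change 1.02, adjusted p = 8.3e-04), and chr13:94407035-94408379 from 100, 92.5 and 96.8 to 180, 113 and 173 (0.73, adjusted p = 8.1e-04). A further shared region, chr13:94409379-94411247, rose by 1.03. The last site joined the region with the fed call when hotspots within 150 bp were merged, and 3 of the 5 lost their status where calls had to cover at least 50% of a region. The sites at 94397218 and 94398311 lie 0.083 kb apart, so the same merging makes them 1 site. The count of 5 therefore depends on the 1 bp overlap rule.

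**Figure D5:**
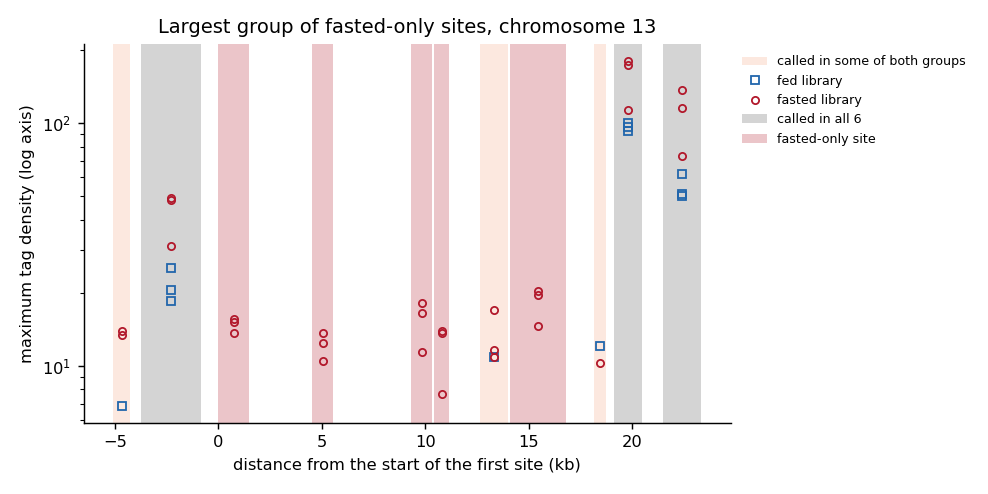
Maximum tag density (log axis) of each called library over the group of 5 fasted-only sites on chromosome 13, against distance from the start of the first site in kb; red bands are fasted-only sites, grey bands shared regions and pale bands regions called in some libraries of both groups. Fasted libraries (circles) stand above fed ones (squares) in all 3 shared regions, and the sites between them hold circles only, at 7.70 to 20.3.

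The group on chromosome 3 (chr3:96352154-96371171, 19.02 kb, 4 sites) had the strongest sites of any group of 4 or 5. The first site, at 96352154, had densities of 14.5, 12.2 and 19.7. The other 3 were higher: 30.4, 16.6 and 50.9 at 96363598, 42.6, 17.0 and 39.4 at 96367083, and 35.7, 18.4 and 40.0 at 96370254. Fasted replicate 2 was again the lowest library at each site, and more than 2-fold below replicate 3 at the strong 3. Inside the group lie 2 shared regions, neither of which passed. The first, chr3:96358690-96359811, went from 126, 126 and 155 to 159, 146 and 168 (log2 fold change 0.30, adjusted p = 0.112). The second, chr3:96361208-96362376, went from 100, 101 and 91.8 to 118, 104 and 134, with no overlap between the groups but no call (log2 fold change 0.35, adjusted p = 0.0648; 0.0197 with average density and 0.0481 with depth as a covariate). Downstream, 4057 bp from the last site, chr3:96375228-96376477 rose from 17.7, 18.7 and 15.3 to 96.2, 59.2 and 115 (2.35, SE 0.20, adjusted p = 7.4e-08).

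The chromosome 5 group (chr5:122752974-122763606, 10.6 kb, 4 sites) was more even. Its densities were 14.2, 18.9 and 13.9 at 122752974, 20.1, 23.9 and 23.3 at 122755270, 24.7, 25.3 and 20.6 at 122756198, and 11.1, 17.2 and 13.02 at 122762715. Here fasted replicate 2 was the highest library at every site. The sites at 122755270 and 122756198 lie 0.03 kb apart and become 1 site when hotspots within 150 bp are merged. The shared region on the right, chr5:122764602-122765803, rose from 79.1, 69.7 and 75.8 to 127, 113 and 120 (log2 fold change 0.75, SE 0.13, adjusted p = 4.3e-04), while the one on the left, chr5:122742725-122743704, went from 9.56, 9.37 and 12.1 to 14.8, 30.4 and 10.6 and did not pass (0.74, SE 0.30, adjusted p = 0.0993; 0.0121 without fasted replicate 3). The remaining group of 4, chr11:16677201-16701801, was looked at after its values were seen: its sites had a mean density of 14.4, and the 1 shared region inside it rose by 0.67.

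The pattern around the sites can be set beside that of other call classes. For the regions called in all fed and no fasted libraries the nearest shared region rose at 38 of 1153 (3.30%) and fell at 232 (20.1%), with a fallen share of 30.9% under 1 kb. For regions called in exactly 3 libraries of both groups the shares were 6.52% risen and 7.78% fallen. Regions that just missed the rule lay between: 14.9% risen and 4.69% fallen with 1 fed call added, 14.6% and 5.76% with 1 fasted call missing, and 11.4% and 5.42% with 2 fed calls added. The difference between these classes was not tested, since each share is a count of regions within the same 6 libraries.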

How the data were processed

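DNase I hypersensitive sites of 3 fed and 3 fasted liver libraries were analysed from 1 hotspot list per library. Per the labels' protocols, fragments of 100 to 500 bp were purified; the submitters' processing notes name CASAVA 1.8 and mm9. No aligner or peak caller is named in the sources used here. The authors' maximum and average tag density per hotspot is a coverage signal whose scale is not stated. The authors also deposited a score for each hotspot, a Z value, and a p-value, made in a way that the file headers do not state; neither was used.

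Density is the highest maximum of a library's hotspots in a region, and width counts both end positions. Fasted and fed libraries were compared over shared regions in R 4.3.3 by limma 3.58.1 (trended eBayes) on log2(density + 1), each library centred on its median, with Benjamini-Hochberg adjustment at 0.05 over 36088 regions; fold changes understate changes of weak regions. No count model was used, since heights are not counts per region. This fit was also run on simulated data with the same noise level in every region, unlike the trended variance of the fit. No result of that run is given here. No replicate list was a copy of another. If 1 step is 1 tag, squared z-values between replicates of a group averaged 2.19 to 5.89, above counting noise. These values cannot tell whether the libraries came from separate livers. Other steps ran in Python 3.11.15 with pandas 2.3.3, numpy 2.4.6 and matplotlib 3.10.9.

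The sites, lists and tests were chosen with earlier results of these data known. Named sites are the 10 strongest, the 5 widest, the 5 whose nearest shared region within 20 kb rose most and the 5 whose such region fell most, the 5 farthest from a shared region, the 3 largest groups, the 3 weakest and the 3 with the widest relative spread. Alternatives were other pseudocounts, scalings, list thresholds, merging and call rules, the replicate block, chromosome X, and leaving out each library; a 5th percentile threshold and depth as a covariate were added after the data were seen. Sequence features and gene annotation were planned for mm9 references only and were not made.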

Additional observations from a re-analysis of the deposited data

How the results depend on the processing

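Leaving out each library in turn gave 985 to 1963 sites, with a median distance to the nearest shared region of 5211.5 to 6221 bp, a median density of 7.44 to 8.94 and a median width of 583 to 664 bp. It gave 15.2% to 25.2% of sites with a risen and 2.74% to 4.09% with a fallen neighbour, and 1940 to 3182 risen and 2025 to 2758 fallen shared regions, 1940 being without fasted replicate 1. With each site required to exceed the fed 25th percentiles, 224 sites remained by construction, with 42.0% risen and 0.893% fallen neighbours, a median distance of 2675 bp, a density of 16.3 and a width of 761 bp. Where calls had to cover 50% of a region, the risen share was 23.2%, the distance 6436 bp and the density 9.96. The distance was 5642 bp with hotspots within 150 bp merged, 5872 bp with lists of 48164 hotspots each and 5136 bp (density 10.4) at a single density threshold of 5.52. A threshold of 0.916, the highest of the lowest densities, changed none of the 6 values of the sites. Without centring 1929 shared regions rose and the risen share was 20.8%. Only the upper 50% of shared regions gave 1402 risen and 1495 fallen regions among fewer tested, with 20.4% risen and 4.93% fallen neighbours. The risen share was 24.1% with quantile normalization, 24.2% without a variance trend and 23.3% with neighbours at 1 kb or more; where not stated, the cause was not tested. The deviations of libraries with the same number correlated at -0.07, -0.03 and -0.17, so the number is not known to pair them. The replicate block gave 2616 risen and 2475 fallen regions, and 24.9% risen and 3.05% fallen neighbours. For named sites, 187 of 215 values under other list rules kept the status; for named neighbours, 554 of 577 values kept direction and side of the threshold, 20 lost the call, 3 gained it and 0 turned. A hotspot at the 5th percentile of its list is 13 to 16 steps high, which would be as many tags if 1 step is 1 tag.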

Other observations

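A fasted-only and a fed-only site (called in all fed and no fasted libraries) could lie close together. Within 20 kb of a fed-only site lay 26 fasted-only sites (3.05%), 5 of them within 5 kb, and the median distance to a fed-only site was 580 kb. These pairs were looked at after their values were seen. The closest pair is 442 bp apart on chromosome 12: the fasted-only site chr12:105328319-105328740 had densities of 6.81, 5.53 and 7.26 in fasted replicates 1 to 3, and the fed-only region chr12:105318743-105327877 had 53.0, 53.6 and 62.5 in fed replicates 1 to 3. On chromosome 5, chr5:30916470-30917130 (11.9, 5.72 and 10.9) lies 3184 bp from chr5:30912504-30913286 (24.3, 17.6 and 24.9). On chromosome 8, chr8:116683371-116684057 (9.93, 6.91 and 11.5) lies 3272 bp from chr8:116676519-116680099 (23.2, 27.4 and 28.4). On chromosome 14, chr14:31383345-31383895 (6.81, 7.10 and 9.08) lies 3287 bp from chr14:31379508-31380058 (9.56, 11.99 and 8.47). On chromosome 6, chr6:71112134-71112814 (15.6, 10.5 and 20.6) lies 4844 bp from chr6:71106664-71107290 (12.5, 20.2 and 8.93). At the 26 sites the nearest shared region rose at 3 (11.5%), fell at 2 (7.69%) and did not pass at 21, where 8.25% of all shared regions rose and 7.73% fell. Among the 5 pairs within 5 kb, the neighbour rose at the chromosome 8 site (log2 fold change 1.06) and fell at the chromosome 12 site (-1.63).

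Chromosome X was outside the rule. There, 27 of 2447 union regions met the rule for fasted-only sites, and 30 the rule for fed-only sites.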
